A study of Mus musculus with 6 samples.

Results

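The genes that carry fatty acids into a muscle fibre, activate them, pass them into mitochondria, oxidise them, store them as triglyceride and divert them were followed in mouse soleus, a calf muscle that holds many slow, oxidative fibres. Members were the rows whose gene symbol is 1 of 36 named genes. The tables list 21572 symbols, and 34 of the 36 have an entry of their own. The other two are listed only within joined entries: Cpt1b with Chkb and BC090627 (mm9 chromosome 15: 89246835 to 89260358), and Acsl3 with Utp14b (chromosome 1: 78654399 to 78704318). A joined entry sums genes that cannot be told apart here, so those values are given under the joined name and left out of every count of members. All 34 passed the filter on low values, a mean FPKM of at least 0.5, where FPKM is the fragments assigned to a gene scaled by its length and by library size.

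Polyadenylated RNA was sequenced from 6 libraries of adult C57BL/6 soleus in 3 groups of 2. The first group was Dach2-/-/Hdac9-/- muscle denervated for 3 days, called DKO-labelled here. The second was wild-type (WT) muscle denervated for 3 days, and the third innervated WT muscle. Innervated muscle of the knockout was not analysed here, and nothing says how the nerve was interrupted, in which cells the deletions act or whether the libraries of a group came from separate animals. The comparison of both denervated groups asked which genes Dach2 and Hdac9 regulate after denervation, and the comparison of both WT groups which genes denervation itself changes.

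The libraries held 25529434 to 46305449 assigned fragments. Dach2 was at 0.961 and 0.681 FPKM in DKO-labelled, 0.519 and 0.536 in denervated WT and 3.85 and 4.29 in innervated WT libraries, and Hdac9 at 0.534 and 0.181 FPKM in DKO-labelled, 1.83 and 0.285 in denervated WT and 4.1 and 3.14 in innervated WT libraries. Dach2 was thus no lower in DKO-labelled than in denervated WT muscle, and Hdac9 overlapped. Exons that a deletion leaves in place may still give reads, so neither value is a test of the genotype. The muscle markers creatine kinase (Ckm), titin (Ttn), myoglobin (Mb) and desmin (Des) were abundant in every library, while the actin gene Acta1 is listed at 0 in all 6. Denervated WT library 2 stood apart from its partner for some lipid genes, as given near the end.

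Fatty acids reach a fibre after lipoprotein lipase frees them from circulating triglyceride. They cross the membrane with the help of Cd36 and the transport proteins of the Slc27 family, and bind Fabp3 in the cytosol. Acyl-CoA synthetases activate them, carnitine palmitoyltransferases carry them into mitochondria, and a repeated cycle of reactions shortens them while electron transfer flavoprotein hands their electrons to the respiratory chain. Slow muscle relies on this route, and nuclear receptors of the PPAR and ERR families with PGC-1 coactivators are known to drive many of its genes.

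To show what sequence stands before some of the members, promoter windows were read from RefSeq (build GRCm38.p6) for 4 of them. Acadm and Fabp3 were each the most reduced member of their step with a window. Ucp3 and Ucp2 are neighbours, of which Ucp3 alone passed the test on denervation. Whether the 2 neighbours differ from each other in their change was not tested. Each window runs from 250 bases before the start of the gene to 50 bases after its start, 5′ to 3′ on the gene's strand. Capitals mark AGGTCA or its reverse complement TGACCT, the core motif that PPAR and ERR receptors are known to bind.
Acadm, chr3:153944594-153944893, minus strand: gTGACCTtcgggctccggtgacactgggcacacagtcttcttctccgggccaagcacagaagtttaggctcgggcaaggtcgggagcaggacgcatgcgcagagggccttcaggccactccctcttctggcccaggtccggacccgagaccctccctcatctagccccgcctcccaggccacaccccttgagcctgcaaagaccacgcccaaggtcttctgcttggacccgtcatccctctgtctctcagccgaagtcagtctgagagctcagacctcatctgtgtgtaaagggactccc
Fabp3, chr4:130308488-130308787, plus strand: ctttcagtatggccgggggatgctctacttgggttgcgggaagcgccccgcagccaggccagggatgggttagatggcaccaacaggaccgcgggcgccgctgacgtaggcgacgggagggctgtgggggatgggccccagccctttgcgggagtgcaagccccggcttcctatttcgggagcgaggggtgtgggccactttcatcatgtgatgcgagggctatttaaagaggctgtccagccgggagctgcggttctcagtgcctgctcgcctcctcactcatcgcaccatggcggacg
Ucp3, chr7:100472741-100473040, plus strand: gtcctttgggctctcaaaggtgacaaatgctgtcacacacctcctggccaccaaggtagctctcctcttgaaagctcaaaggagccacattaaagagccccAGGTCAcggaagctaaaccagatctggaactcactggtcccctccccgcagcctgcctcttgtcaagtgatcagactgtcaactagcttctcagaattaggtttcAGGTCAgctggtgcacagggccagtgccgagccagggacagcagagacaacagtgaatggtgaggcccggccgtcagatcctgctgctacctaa
Ucp2, chr7:100493108-100493407, plus strand: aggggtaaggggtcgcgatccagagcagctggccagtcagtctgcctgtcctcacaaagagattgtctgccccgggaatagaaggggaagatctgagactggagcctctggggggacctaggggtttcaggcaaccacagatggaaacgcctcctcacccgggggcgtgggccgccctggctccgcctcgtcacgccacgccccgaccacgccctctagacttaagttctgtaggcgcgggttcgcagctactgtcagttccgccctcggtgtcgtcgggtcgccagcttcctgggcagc

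The Ucp3 window held 2 core motifs, whose first bases lay 149 and 44 bases before the start, and the Acadm window held 1, at 249 bases before it. The Fabp3 and Ucp2 windows held 0. Windows existed for 29 of the 36 genes (34 windows, as some genes have several), and not for Acaa2, Dgat1, Dgat2, Decr1, Cpt1b, Acot13 and Lpl. Both strands were searched for 4 motifs. AGGTCA, a search added after the values were seen, occurred in 20.6% of the members' windows and in 16.3% of all 32851 windows. The 7 genes with it were Acacb, Acadm, Acadvl, Cd36, Cpt1a, Echs1 and Ucp3. The direct repeat of the core motif that paired PPAR and RXR receptors bind occurred in 0 of the members' windows and in 0.0396% of all, and the extended motif TCAAGGTCA, which ERR binds, in 0 and in 0.423%. The E-box CANNTG, the kind of site that myogenic factors bind, occurred in 73.5% of the members' windows and in 72.3% of all. AGGTCA lies within both the direct repeat and TCAAGGTCA. These are matches of letters, not binding sites.

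In WT muscle, most of the route fell on denervation. Of 34 members, 22 fell, 0 rose and 12 did not pass (edgeR's quasi-likelihood test, Benjamini-Hochberg adjusted p under 0.05 over 12247 genes). That is 64.7% of the members lower, against 14.3% of all genes tested lower and 14.4% higher (28.7% either way). At an unadjusted p under 0.05, 29 members passed and 0 of them was higher. That is 85.3% of the members, against 43.9% of all genes tested in either direction. DESeq2 called 26 lower and 0 higher, and limma on log2(FPKM + 0.5) called 23 and 0. Of all 12247 genes, DESeq2 called 2248 lower and 2268 higher, and limma 2016 and 1487. The median log2 change of the members was -1.16, against 0.00 over all genes tested. The 2 denervated libraries lay below both innervated ones for 30 members, or 88.2%, against 38.5% of all genes tested, and above both for 1, or 2.94%, against 32.7%. Without innervated WT library 1 the count of members called lower was 9, and without innervated WT library 2 it was 8. Over all genes tested, those fits called 291 and 119 lower, against 1753 with all 6 libraries. The 8 members called in all 17 alternative fits were Lpl, Fabp3, Slc27a1, Acsl1, Acadm, Hadh, Acaa2 and Acot13, and the other 14 lost their call without innervated WT library 2.

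**Figure D1:**
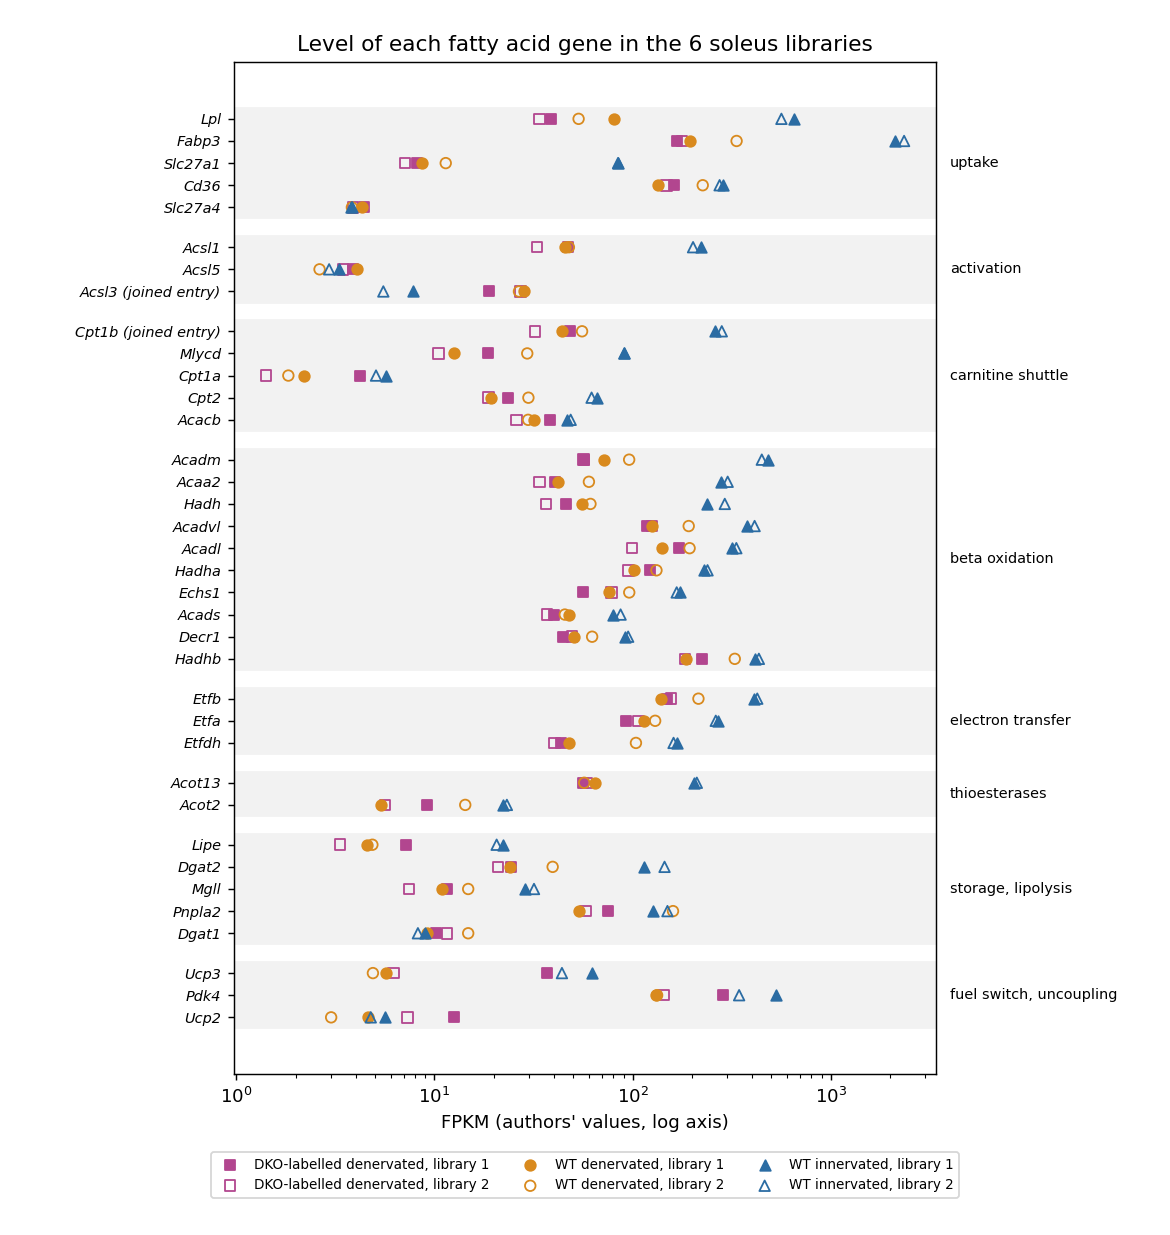
Level of each of the 36 genes in FPKM (log axis) in the 6 libraries, grouped by step: squares are DKO-labelled denervated, circles denervated WT and triangles innervated WT libraries, with filled and open signs for libraries 1 and 2. The triangles lie to the right of both circles for 30 of the 34 members with an entry of their own.

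Denervated DKO-labelled muscle was compared with the same innervated libraries. It had 25 members lower and 1 higher, Ucp2, against 16.2% and 15.2% of all genes tested (31.4% either way), with a median of -1.39 (0.01 over all genes). The 2 comparisons share their innervated libraries, so their counts are not independent of each other. All 10 beta oxidation genes and all 3 electron transfer genes were called lower. The calls included Cd36, Acadl, Hadhb, Etfdh and Acot2, none of which passed in WT muscle and none of which passed between the genotypes. With scaling by library totals alone, the calls of Cd36, Hadhb and Acot2 were lost. Of the 26 calls, 22 were kept in all 11 alternatives that leave out no library. Pdk4 (-1.04, edgeR adjusted p = 0.0688) and Ucp3 (-1.22, adjusted p = 0.225), which were called in WT muscle, did not pass here. Without DKO-labelled library 2, 16 members were called lower, and without innervated WT library 1 or 2 the counts were 13 and 10. The single call of Ucp2 was lost in 5 of the 11 alternatives that leave out no library. Bulk RNA cannot tell fewer cells of a type from less RNA per cell, which holds for every value given.

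Of 5 uptake genes 3 fell, by 7.89-fold to 8.92-fold. Lpl, lipoprotein lipase (mm9 chromosome 8: 71404453 to 71430831, as the files give it), had 38.7 and 33.9 FPKM in DKO-labelled and 80.5 and 53.4 FPKM in denervated WT muscle, against 650 and 564 FPKM in innervated WT muscle. Every denervated library lay far below both innervated ones, and Lpl fell, with a log2 change of -3.16 ± 0.26 in WT (± SE here and for every log2 change, edgeR adjusted p = 0.00221). Fabp3, the cytosolic fatty acid binding protein of heart and slow muscle (mm9 chromosome 4: 129986021 to 129992707), was the most abundant of the 36 genes in innervated muscle by FPKM, which is scaled by length. It had 168 and 178 FPKM in DKO-labelled and 196 and 335 FPKM in denervated WT, against 2113 and 2347 FPKM in innervated WT muscle (-3.00 ± 0.28, adjusted p = 0.00265). Slc27a1, the transport protein FATP1 of muscle and fat (mm9 chromosome 8: 74092825 to 74110607), had 8.2 and 7.12 FPKM in DKO-labelled and 8.65 and 11.4 FPKM in denervated WT, against 84 and 84.5 FPKM in innervated WT muscle (-2.98 ± 0.19, adjusted p = 0.00176). For these 3 genes the 4 denervated libraries all lay far below the 2 innervated ones.

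Neither of the other uptake genes passed. Cd36, the membrane fatty acid translocase, had 161 and 148 FPKM in DKO-labelled and 135 and 226 FPKM in denervated WT, against 285 and 275 FPKM in innervated WT muscle. Its denervated WT libraries lay below both innervated ones but the difference of -0.64 ± 0.26 did not pass (edgeR adjusted p = 0.106). Without denervated WT library 2 it was -1.06 and passed, and over the 17 alternative fits it ran from -1.06 to -0.32. Slc27a4, a second transport protein of the family (FATP4), had 4.42 and 3.87 FPKM in DKO-labelled, 4.33 and 3.83 FPKM in denervated WT and 3.77 and 3.85 FPKM in innervated WT muscle. The denervated and innervated WT libraries of Slc27a4 overlapped, at 0.18 ± 0.17 (adjusted p = 0.446). The ratio of Slc27a4 to Slc27a1 within a library was 0.539 and 0.544 in DKO-labelled and 0.5 and 0.337 in denervated WT, against 0.0449 and 0.0456 in innervated WT muscle. With 2 libraries against 2, the smallest two-sided p an exact permutation test allows is 0.333, so such ratios carry no test.

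Acyl-CoA synthetases activate fatty acids. Of the 2 with an entry of their own 1 fell, and the joined entry that holds Acsl3 rose. Acsl1, the main form of muscle and fat, had 47.1 and 33 FPKM in DKO-labelled and 45.6 and 47.7 FPKM in denervated WT, against 221 and 202 FPKM in innervated WT muscle, and fell, with a log2 change of -2.13 ± 0.21 (edgeR adjusted p = 0.00296). The joined entry of Acsl3, a form associated with lipid droplets, and Utp14b was higher in both denervated groups. It had 18.9 and 27.1 FPKM in DKO-labelled and 28.4 and 26.7 FPKM in denervated WT, against 7.78 and 5.52 FPKM in innervated WT muscle, and rose by 2.07 ± 0.25 (adjusted p = 0.00431), a call lost without innervated WT library 2 (adjusted p = 0.0568). Acsl5, a form of intestine and liver, was low, at 3.9 and 3.46 FPKM in DKO-labelled, 4.05 and 2.63 FPKM in denervated WT and 3.29 and 2.94 FPKM in innervated WT muscle, and its WT groups overlapped (0.15 ± 0.25, adjusted p = 0.669). In denervated WT muscle the mean length-scaled level of Acsl1 was 46.7 ± 1.54 FPKM and that of the joined Acsl3 entry 27.6 ± 1.23 FPKM (SD, n = 2). In innervated WT muscle they were 211 ± 13 and 6.65 ± 1.6 FPKM (SD, n = 2).

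The carnitine shuttle moves activated fatty acids across the mitochondrial membranes. The joined entry that holds Cpt1b, the muscle form of its outer membrane enzyme, had 48.1 and 32.2 FPKM in DKO-labelled and 43.9 and 55.6 FPKM in denervated WT, against 262 and 282 FPKM in innervated WT muscle. It fell, with a log2 change of -2.52 ± 0.27 (edgeR adjusted p = 0.00348). Cpt1a, the liver form, was far less abundant, at 4.23 and 1.41 FPKM in DKO-labelled and 2.19 and 1.83 FPKM in denervated WT, against 5.71 and 5.07 FPKM in innervated WT muscle. The denervated WT libraries of Cpt1a lay below both innervated ones, but its difference of -1.35 ± 0.47 did not pass (adjusted p = 0.0712). It passed in 6 of 17 alternatives, 2 of which leave out a DKO-labelled library. Cpt2, the inner membrane enzyme, had 23.6 and 18.7 FPKM in DKO-labelled and 19.3 and 29.8 FPKM in denervated WT, against 66 and 62.1 FPKM in innervated WT muscle, and fell, with a log2 change of -1.31 ± 0.24 (adjusted p = 0.0124).

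Malonyl-CoA inhibits the outer membrane enzyme, and the 2 genes of its turnover were measured. Mlycd, which degrades it, had 18.6 and 10.5 FPKM in DKO-labelled and 12.6 and 29.4 FPKM in denervated WT, against 91 and 91 FPKM in innervated WT muscle, and fell, with a log2 change of -2.02 ± 0.44 (edgeR adjusted p = 0.0193). The denervated libraries of Mlycd differed among themselves but all lay well below the innervated ones. The change of Mlycd was -2.76 without denervated WT library 2 and -1.54 without library 1, and both passed. Acacb, the mitochondrial acetyl-CoA carboxylase that makes malonyl-CoA, had 38.4 and 25.9 FPKM in DKO-labelled and 31.9 and 29.7 FPKM in denervated WT, against 46.8 and 48.7 FPKM in innervated WT muscle. The 2 WT groups of Acacb did not overlap, the 2 denervated groups did, and the WT difference of -0.53 ± 0.21 did not pass (adjusted p = 0.0987). The carnitine genes that are no members (carnitine carrier Slc25a20, carnitine importer Slc22a5, carnitine acetyltransferase Crat) fell at 3 of 3 tested, with a median of -0.86.

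All 10 beta oxidation genes lay lower in both denervated WT libraries than in both innervated ones, and 8 of them fell. The step opens with acyl-CoA dehydrogenases of decreasing chain length. Acadvl, for very long chains, had 118 and 125 FPKM in DKO-labelled and 126 and 192 FPKM in denervated WT, against 377 and 413 FPKM in innervated WT muscle (-1.23 ± 0.23, edgeR adjusted p = 0.0131). Acadl, for long chains, had 172 and 99.2 FPKM in DKO-labelled and 141 and 194 FPKM in denervated WT, against 318 and 334 FPKM in innervated WT muscle, and at -0.93 ± 0.29 just missed the threshold (adjusted p = 0.0551). Acadm, for medium chains, and the thiolase Acaa2 fell the most within the step, by about the same amount. Acadm had 56.9 and 56.6 FPKM in DKO-labelled and 71.6 and 96.1 FPKM in denervated WT, against 483 and 449 FPKM in innervated WT muscle (-2.44 ± 0.20, adjusted p = 0.00221). Acads, for short chains, had 40.2 and 37 FPKM in DKO-labelled and 48 and 45.5 FPKM in denervated WT, against 79.2 and 87 FPKM in innervated WT muscle, and fell, with a log2 change of -0.74 ± 0.14 (adjusted p = 0.0133). The smallest and the greatest change of the 4 dehydrogenases thus lay 1.67-fold and 5.44-fold below innervated muscle.

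The later reactions of the cycle were lower as well, again to unequal degrees. The trifunctional protein of the inner membrane, which handles long chains, is made of the products of Hadha and Hadhb. Hadha had 123 and 95.1 FPKM in DKO-labelled and 102 and 132 FPKM in denervated WT, against 229 and 239 FPKM in innervated WT muscle, and fell, with a log2 change of -0.93 ± 0.21 (edgeR adjusted p = 0.0213). Hadhb, whose gene lies next to Hadha, had 225 and 184 FPKM in DKO-labelled and 187 and 328 FPKM in denervated WT, against 414 and 434 FPKM in innervated WT muscle. At -0.68 ± 0.28 Hadhb did not pass (adjusted p = 0.111). Without denervated WT library 2 it passed at -1.15, and over the 17 alternative fits it ran from -1.15 to -0.34. The matrix enzymes for shorter chains were Echs1, a hydratase, Hadh, a dehydrogenase, and Acaa2, a thiolase. Echs1 had 56.4 and 78.4 FPKM in DKO-labelled and 76.3 and 96.2 FPKM in denervated WT, against 173 and 167 FPKM in innervated WT muscle (-0.92 ± 0.22, adjusted p = 0.0245). Hadh had 45.9 and 36.6 FPKM in DKO-labelled and 55.7 and 61.3 FPKM in denervated WT, against 238 and 292 FPKM in innervated WT muscle (-2.11 ± 0.19, adjusted p = 0.00246). Acaa2 had 40.4 and 33.9 FPKM in DKO-labelled and 41.9 and 60.2 FPKM in denervated WT, against 281 and 302 FPKM in innervated WT muscle (-2.44 ± 0.22, adjusted p = 0.00247). Hadh and Acaa2 thus lay 4.32-fold and 5.41-fold lower, and Hadha 1.9-fold. Decr1, the reductase needed for unsaturated chains, had 44.6 and 49.5 FPKM in DKO-labelled and 50.5 and 62.5 FPKM in denervated WT, against 91.7 and 95 FPKM in innervated WT muscle. Decr1 fell, with a log2 change of -0.72 ± 0.17 (adjusted p = 0.0244), and with scaling by library totals alone the call was lost at -0.45.

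**Figure D2:**
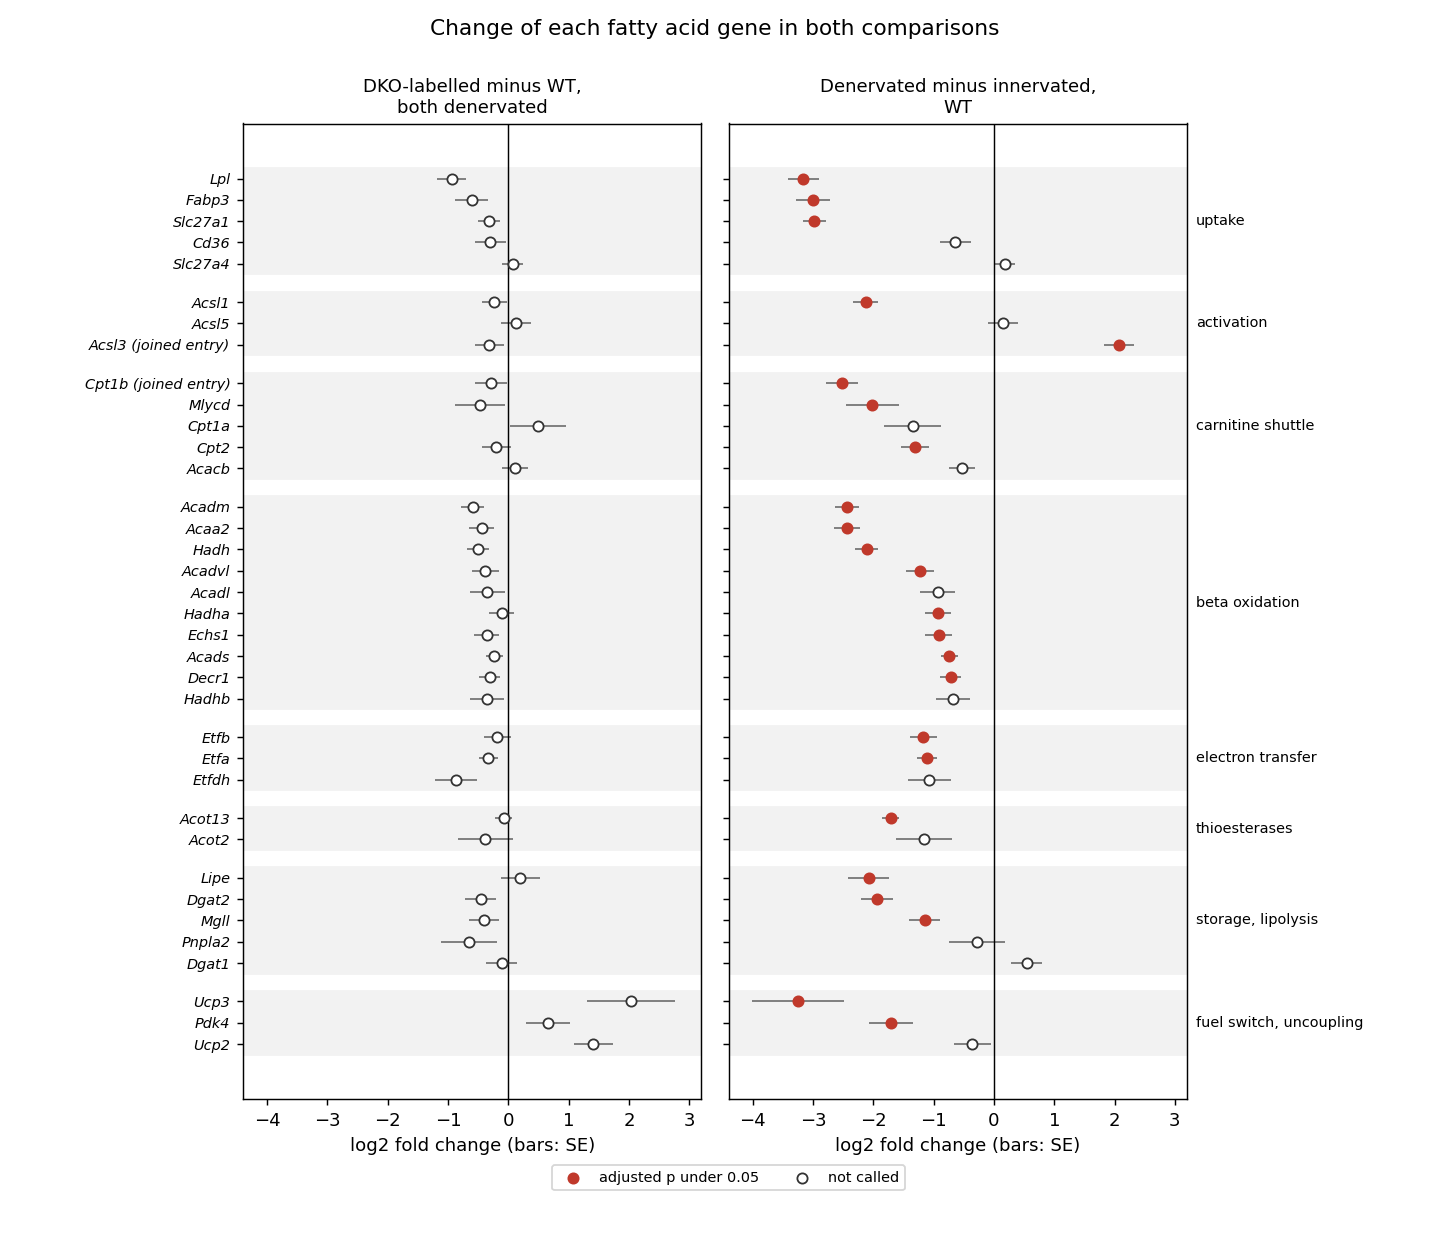
Log2 fold change with its SE (bars) for each of the 36 genes, grouped by step: DKO-labelled minus WT, both denervated, at left, and denervated minus innervated WT at right; filled points passed at an adjusted p under 0.05. At left 0 members passed, and at right 22 of 34 members were called lower, beside the joined entries of Cpt1b (lower) and Acsl3 (higher).

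Electron transfer flavoprotein takes the electrons of the acyl-CoA dehydrogenases. Its subunit gene Etfa had 92.6 and 107 FPKM in DKO-labelled and 114 and 130 FPKM in denervated WT, against 271 and 263 FPKM in innervated WT muscle (-1.11 ± 0.16, edgeR adjusted p = 0.00672). Etfb, the other subunit, had 149 and 156 FPKM in DKO-labelled and 139 and 215 FPKM in denervated WT, against 412 and 426 FPKM in innervated WT muscle (-1.17 ± 0.23, adjusted p = 0.0144). Both fell, by 2.16-fold and 2.25-fold. Etfdh, which passes the electrons to ubiquinone, had 43.6 and 40.3 FPKM in DKO-labelled and 47.5 and 104 FPKM in denervated WT, against 168 and 161 FPKM in innervated WT muscle. Its difference of -1.07 ± 0.35 did not pass (adjusted p = 0.0603) but passed in 9 of 17 alternatives, among them DESeq2 (adjusted p = 0.0154). Its value was -1.75 without denervated WT library 2 and -0.62 without library 1, and both passed.

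Thioesterases release fatty acids from coenzyme A. Acot13 had 56.4 and 58.4 FPKM in DKO-labelled and 64.6 and 57 FPKM in denervated WT, against 204 and 211 FPKM in innervated WT muscle, and fell, with a log2 change of -1.71 ± 0.14 (edgeR adjusted p = 0.00221). Mitochondrial Acot2 had 9.2 and 5.64 FPKM in DKO-labelled and 5.37 and 14.3 FPKM in denervated WT, against 22.2 and 23.2 FPKM in innervated WT muscle, and did not pass at -1.16 ± 0.46 (adjusted p = 0.102). Without denervated WT library 2 Acot2 was at -2.03 and passed, and over the 17 alternative fits it ran from -2.03 to -0.62. Acot2 has near-identical neighbours such as Acot1, and how fragments were divided among them is not stated, so its value is uncertain.

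Of 5 genes of triglyceride storage and release 3 fell, and Dgat1 and Pnpla2 did not pass. Dgat2, an enzyme of the last step of triglyceride synthesis, had 24.4 and 20.9 FPKM in DKO-labelled and 24.2 and 39.5 FPKM in denervated WT, against 114 and 145 FPKM in innervated WT muscle, and fell, with a log2 change of -1.94 ± 0.27 (edgeR adjusted p = 0.00615). Dgat1, an unrelated enzyme for the same reaction, had 10.2 and 11.6 FPKM in DKO-labelled and 9.19 and 14.8 FPKM in denervated WT, against 8.96 and 8.25 FPKM in innervated WT muscle. It is the 1 member whose denervated WT libraries both lay above both innervated ones, and at 0.54 ± 0.26 it did not pass (adjusted p = 0.155). Without denervated WT library 1 it passed at 0.84, and over the 17 alternative fits it ran from 0.15 to 0.84. The ratio of Dgat2 to Dgat1 was 2.39 and 1.8 in DKO-labelled and 2.63 and 2.67 in denervated WT, against 12.7 and 17.5 in innervated WT muscle. In every denervated library the excess of Dgat2 was several times smaller than in the innervated ones.

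Lipolysis runs through Pnpla2 (ATGL), Lipe (hormone-sensitive lipase) and Mgll (monoglyceride lipase) in turn. Pnpla2 had 74.8 and 58 FPKM in DKO-labelled, 53.6 and 160 FPKM in denervated WT and 127 and 150 FPKM in innervated WT muscle. Its 2 denervated WT libraries lay on either side of both innervated ones, at -0.28 ± 0.47 (edgeR adjusted p = 0.671). Without denervated WT library 2 it was -1.29 and passed (adjusted p = 0.0133), and without library 1 it was 0.29. Lipe had 7.22 and 3.34 FPKM in DKO-labelled and 4.55 and 4.86 FPKM in denervated WT, against 22.3 and 20.6 FPKM in innervated WT muscle (-2.08 ± 0.34, adjusted p = 0.00914). Mgll had 11.6 and 7.45 FPKM in DKO-labelled and 10.9 and 14.8 FPKM in denervated WT, against 28.5 and 31.8 FPKM in innervated WT muscle (-1.15 ± 0.26, adjusted p = 0.0211). Lipe and Mgll fell, by 4.22-fold and 2.22-fold.

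**Figure D3:**
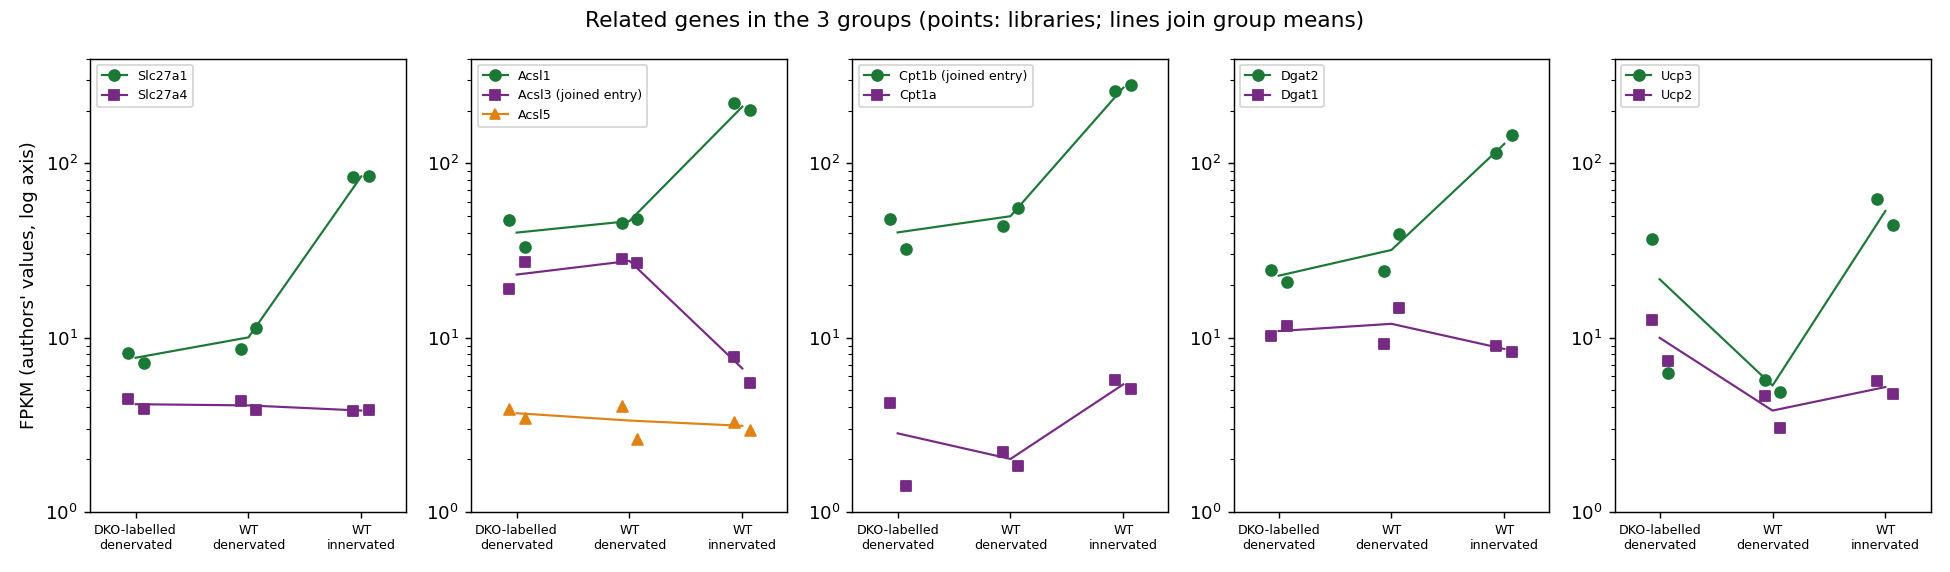
FPKM (log axis) in the 3 groups of members that share a family or, for Dgat1 and Dgat2, a reaction. Each library is a point, and lines join group means. Slc27a1, Acsl1, the Cpt1b entry, Dgat2 and Ucp3 were the most abundant of their panels in innervated WT muscle. They lay lower in denervated WT muscle, where Slc27a4, Acsl5, Dgat1 and Ucp2 lay within 1.46-fold of their innervated level. Cpt1a lay 2.56-fold lower there, a difference that did not pass, and the joined Acsl3 entry 4.2-fold higher. These folds are edgeR estimates, not ratios of the plotted FPKM means.

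Pdk4, the kinase that shuts pyruvate dehydrogenase and favours fat as fuel, had 286 and 143 FPKM in DKO-labelled and 131 and 133 FPKM in denervated WT, against 532 and 345 FPKM in innervated WT muscle. Pdk4 fell, with a log2 change of -1.71 ± 0.37 in WT (edgeR adjusted p = 0.0192). Ucp3, the mitochondrial carrier of muscle that is induced when fatty acids are plentiful, had 37 and 6.23 FPKM in DKO-labelled and 5.72 and 4.89 FPKM in denervated WT, against 62.6 and 44 FPKM in innervated WT muscle. It fell, with a log2 change of -3.25 ± 0.76 in WT (adjusted p = 0.0244), while 1 DKO-labelled library lay near the innervated level and the other near the denervated WT level. Without denervated WT library 2 both calls were lost, as they were without either innervated library, with adjusted p up to 0.118 for Pdk4 and 0.114 for Ucp3. Ucp2, a related carrier of many cell types, lies 6912 bases from Ucp3 (mm9 chromosome 7: 107641853 to 107650682 and chromosome 7: 107621499 to 107634941). Ucp2 had 12.6 and 7.33 FPKM in DKO-labelled and 4.61 and 3.01 FPKM in denervated WT, against 5.63 and 4.77 FPKM in innervated WT muscle, and the WT difference did not pass at -0.36 ± 0.31 (adjusted p = 0.41). The Ucp2 to Ucp3 ratio was 0.34 and 1.18 in DKO-labelled and 0.806 and 0.616 in denervated WT, against 0.09 and 0.108 in innervated WT muscle.

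Between the genotypes, both denervated, 0 of 34 members passed (edgeR adjusted p under 0.05), against 0.0408% of all genes tested (0.0163% lower and 0.0245% higher), so the count is at the background. At an unadjusted p under 0.05, 6 members passed (17.6%, against 6.11% of all genes tested), DESeq2 called 1 member lower, Lpl, and 1 higher, Ucp2, and limma called 0. A p that misses the threshold does not show that the genotypes are alike. The changes ran from -0.94 for Lpl to 2.03 for Ucp3, with a median of -0.31 (-0.02 over all genes).

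By step, all 10 beta oxidation members lay below 0, with a median of -0.36, and so did 4 of 5 uptake members, with a median of -0.32, against 53.6% of all genes tested below 0. The medians were -0.14, with 8 of 10 below 0, and -0.10 without denervated WT library 2, and -0.57 and -0.61 without library 1. The DKO-labelled libraries lay below both denervated WT libraries for 11 members, or 32.4%, against 15.1% of all genes tested. Among these 11 were Lpl, Fabp3, Slc27a1, Acadm, Hadh and Acaa2. Lpl, at 38.7 and 33.9 FPKM in DKO-labelled and 80.5 and 53.4 FPKM in denervated WT muscle, differed by -0.94 ± 0.24 (edgeR unadjusted p = 0.0064, adjusted p = 0.444). Acadm, at 56.9 and 56.6 FPKM in DKO-labelled and 71.6 and 96.1 FPKM in denervated WT muscle, differed by -0.59 ± 0.19 (unadjusted p = 0.0192, adjusted p = 0.649). Etfdh, also among the 11, differed by -0.87 ± 0.35 (adjusted p = 0.793), and its value turned on the WT libraries: it was -1.33 and passed without denervated WT library 1 (adjusted p = 0.0397), and -0.19 without library 2. The member median depends on 1 library: it was -0.04 without denervated WT library 2 and -0.49 without library 1, and 19 and 25 of 34 members lay below 0 in those fits, against 26 with all libraries.

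The 3 genes of fuel switch and uncoupling lay above 0. Both DKO-labelled libraries lay above both denervated WT libraries for Pdk4, Ucp2 and Ucp3, the only members to do so, or 8.82%, against 14.7% of all genes tested. Ucp2 had 12.6 and 7.33 FPKM in DKO-labelled and 4.61 and 3.01 FPKM in denervated WT muscle, a difference of 1.41 ± 0.32 (edgeR unadjusted p = 0.00351, adjusted p = 0.372). Ucp3 differed by 2.03 ± 0.73 (unadjusted p = 0.0287, adjusted p = 0.74) and Pdk4 by 0.66 ± 0.36 (adjusted p = 0.926). The Ucp3 difference rests on DKO-labelled library 1: without it the difference was 0.25, and without DKO-labelled library 2 it was 2.81. The Pdk4 difference was 0.08 and 1.07 in the same fits, and that of Ucp2 was 0.98 and 1.75.

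The 2 libraries of each denervated group differed for several lipid genes. In denervated WT muscle, library 2 exceeded library 1 at least 2-fold for 4 members (11.8%, against 3.07% of all genes with fragments in both): Pnpla2, Acot2, Mlycd and Etfdh. It lay at least 2-fold below library 1 for 0 members, against 7.78% of all genes. Outside the members, Bdh1 (7.57 and 2.59 FPKM in libraries 1 and 2) and Lpin1 (20.5 and 9.21 FPKM) were among the genes lower in library 2. Library 2 lay above library 1 for 25 of 34 members, with a median log2 ratio of 0.38 (-0.02 over all genes). Of 5 lipid droplet coat genes, named here after their values were seen, 3 had a gap in the same direction, and Plin3, at 23.9 and 13.7 FPKM, and Plin1, at 0.935 and 0.696 FPKM, were lower in library 2. Plin5 had 0.802 and 17.3 FPKM in the 2 denervated WT libraries, Plin2 had 26.7 and 260 and Plin4 had 3.79 and 23.3, so that library 2 was 21.5-fold, 9.73-fold and 6.15-fold above library 1. In innervated WT muscle no member differed 2-fold between the libraries.

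In DKO-labelled muscle it was library 1 that lay higher, at least 2-fold for 4 members (11.8%, against 4.03% of all genes): Ucp3, Cpt1a, Lipe and Pdk4. Library 1 lay at least 2-fold lower for 0 members, against 0.823% of all genes. Ucp3 stood 5.95-fold above library 2, and the lipase inhibitor Angptl4 and the lipid droplet gene Cidec, also named after their values were seen, stood 4.46-fold and 3.37-fold above it. In denervated WT muscle, library 2 over library 1 was only 0.854 for Ucp3, 0.836 for Cpt1a, 1.07 for Lipe and 1.01 for Pdk4. All 8 adipocyte markers, of which Cidec is 1, were higher in DKO-labelled library 1 than in library 2. Their sum was 409 FPKM in library 1 and 277 FPKM in library 2, mostly Fabp4 (319 and 237 FPKM), while Plin1 had 2 and 0.593 FPKM and Cfd 57.3 and 23.8 FPKM in the 2 libraries. Their part in this gap was not tested. The labels give no reason for either gap.

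**Figure D4:**
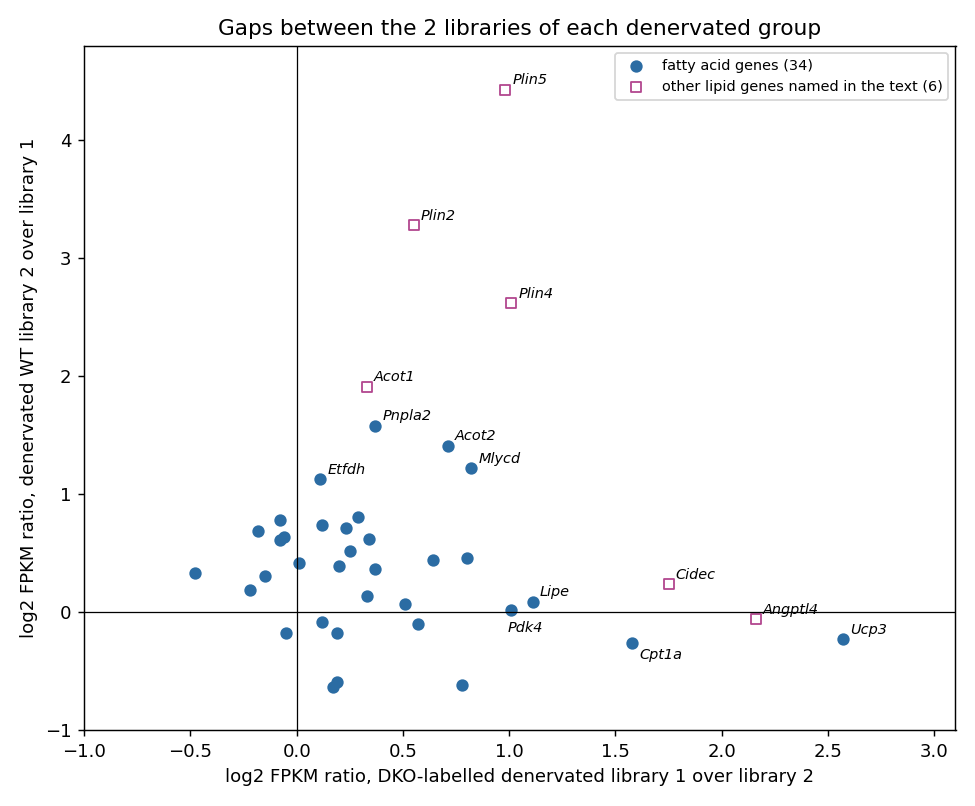
Log2 ratio of FPKM between the 2 libraries of each denervated group, DKO-labelled library 1 over 2 (x axis) against denervated WT library 2 over 1 (y axis), with a point for each of 34 members and squares for 6 other lipid genes named in the text. Pnpla2, Acot2, Mlycd and Etfdh lie high with Plin2, Plin4, Plin5 and Acot1, and Ucp3, Cpt1a, Lipe and Pdk4 lie to the right with Angptl4 and Cidec. The 6 squares are a choice, not a full list. Plin1, Plin3, Bdh1 and Lpin1, all lower in denervated WT library 2 than in library 1, are not shown. How fragments were divided between Acot1 and Acot2 is not stated.

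The rest of the pathway was read from lists of 91 genes outside the 36, of which 84 were tested. Of these, 41 fell, 5 rose and 38 did not pass on denervation in WT muscle, or 48.8% and 5.95%, with a median log2 change of -0.82. In peroxisomal oxidation 8 of 10 fell, among them the bifunctional enzyme Ehhadh (-1.36). Other mitochondrial oxidation enzymes fell at 7 of 11, among them Mcee (-1.43) and the thiolase Acat1 (-1.17), and both ketone-use genes fell, Bdh1 (-4.18) and Oxct1 (-1.83). Droplet and lipolysis control genes fell at 3 of 6, with the ATGL inhibitor G0s2 at -3.73 and Plin4 at -2.71. The Plin4 change was -4.55 without denervated WT library 2 and -1.93 without library 1, and both passed. Of the transcriptional regulators, 6 of 12 fell and 0 rose, with the coactivator Ppargc1a at -1.95 and the receptor Ppara at -1.89. The 5 genes that rose were the synthetases Acsl6 (1.32) and Acsl4 (0.94), the thioesterase Acot9 (1.81) and the phosphatidate phosphatases Lpin2 (2.67) and Lpin3 (1.31). In de novo synthesis 0 of 6 passed in edgeR, with 3 at an unadjusted p under 0.05, 2 called lower by DESeq2 and 0 by limma. Between the genotypes 0 of the 84 passed in edgeR, with 7 at an unadjusted p under 0.05, 1 (Dbi, which binds acyl-CoA) called higher by DESeq2 and 0 by limma.

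Several members are also expressed by fat cells and vessels (Lpl, Cd36, Lipe, Pnpla2, Mgll, Dgat2). Most markers of those cells fell, as Lpl, Lipe, Mgll and Dgat2 did, while Cd36 and Pnpla2 did not pass. Of 8 adipocyte markers, 7 fell on denervation in WT muscle. The summed level of the 8 was 277 to 409 FPKM in DKO-labelled and 314 to 345 FPKM in denervated WT, against 990 to 1014 FPKM in innervated WT muscle. Most of each sum was Fabp4, which is also among the other pathway genes tested. Fabp4 had 319 and 237 FPKM in DKO-labelled and 261 and 289 FPKM in denervated WT, against 714 and 768 FPKM in innervated WT muscle. Adipoq, a defining marker, had 10.3 and 5.62 FPKM in DKO-labelled and 5.18 and 5.37 FPKM in denervated WT, against 29 and 15.6 FPKM in innervated WT muscle, and none of the 8 was at 0. Of 7 endothelial markers, 6 fell, with sums of 59.6 to 72.6 FPKM in DKO-labelled and 70.8 to 76.1 FPKM in denervated WT, against 137 to 186 FPKM in innervated WT muscle. Of 4 tested muscle fibre markers 2 fell, with sums of 8935 to 8985 FPKM in DKO-labelled and 10482 to 10742 FPKM in denervated WT, against 21823 to 23554 FPKM in innervated WT muscle. Of 6 macrophage markers, 1 rose, Cd68. Of 5 Schwann cell markers 4 fell, of 4 fibroblast markers 1 fell, and of 2 satellite cell markers 0 passed in edgeR, with 1 at an unadjusted p under 0.05. The part of other cell types in the members' changes was not tested.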

How the data were processed

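Per the file headers, each of the 6 deposited tables holds the FPKM made by the authors, a signal of externally scaled fragments and raw fragments, which are estimated counts (88.3% to 89.0% whole within 1e-06). The signal column was the raw fragments times 1 factor per library (0.6643 to 1.5641). Cuffdiff 2.0.2 and TopHat2 2.0.3 are listed in the submitters' processing notes, beside Bowtie2 2.0.0.7, CASAVA 1.8.2, Trim Galore 0.2.1 and the mm9 build. What annotation and strand setting were used, and how shared fragments were treated, is not given in the sources used here. Loci are those of the files (mm9), and the promoter windows are on GRCm38.p6.

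Each table's 65415 lines held 21792 distinct entries, of which those with the same symbol were summed. Estimated counts were rounded and tested with edgeR 4.0.16 (R 4.3.3, quasi-likelihood, TMM scaling, 1 fit of 6 libraries, 3 residual degrees of freedom), two-sided, with Benjamini-Hochberg adjustment over 12247 genes of mean FPKM of at least 0.5. Standard errors of log2 fold changes are the change divided by the root of the F statistic. Alternatives used limma 3.58.1, DESeq2 1.42.0, other scalings, filters and sample sets. The fits were tested on simulated data. No label says that libraries came from separate animals, so p-values measure the spread between libraries. Replicates were numbered in accession order. The members and lists were chosen with earlier results of these data known. All 36 genes are described. Outside them, up to 2 called genes of greatest change per list, all that rose, and those said to be named after their values were seen are given, except 1 gene that is not reported here.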

Additional observations from a re-analysis of the deposited data

How the results depend on the processing

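Of the 22 members called on denervation in WT muscle, 21 were called in each of the 11 alternatives that leave out no library, the exception being Decr1 with library totals alone, and 8 in all 17. No called member changed direction. The count of members called lower ran from 8 to 25 when 1 library was left out, and the count called higher from 0 to 1 (Dgat1, without denervated WT library 1). Between the genotypes DESeq2 gave 1 lower and 1 higher, and leaving out 1 library gave 0 to 1 lower (Etfdh, without denervated WT library 1) and 0 higher throughout. Of the 34 members, 15 changed sign in this comparison under some alternative. For DKO-labelled against innervated WT muscle, leaving out 1 library gave 10 to 26 lower and 0 to 1 higher, and the higher count was 2 with library totals alone and 0 with upper-quartile scaling, in the 3 limma alternatives and with the filter raised to a mean FPKM of 2. With library totals alone the median of all genes was 0.27 for denervated against innervated WT and 0.33 for DKO-labelled against innervated WT, and the members' median in WT was -0.90. That scaling called 1144 genes lower and 3331 higher in WT, against 1753 and 1759. With the 2 runs of consecutive sample numbers as a replicate block, 24 members were lower and 0 higher in WT, 0 and 0 between the genotypes, and 26 and 1 for DKO-labelled against innervated WT. The labels do not say that these numbers mark a batch. The differences between the libraries of a group, across genes, correlated at 0.28 between both denervated groups, 0.15 between both WT groups and 0.06 between DKO-labelled and innervated WT. Between the genotypes, the call count over all genes depends on the tool: 2 lower and 3 higher, against 101 and 80 in DESeq2 18 and 17 in limma on log2(FPKM + 0.5), 31 and 29 with no filter on low values, and 74 and 45 without denervated WT library 1. The causes were not tested. The member with fewest fragments, Cpt1a, had 284 in its lowest library, and each group has 2 libraries.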

Other observations

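Dbi, the acyl-CoA binding protein, was the gene outside the 36 with the smallest unadjusted p between the genotypes among the 84 tested. It had 609 and 646 FPKM in DKO-labelled denervated and 386 and 352 FPKM in denervated WT muscle, a log2 difference of 0.77 ± 0.16 (edgeR unadjusted p = 0.00243, adjusted p = 0.335), and 280 and 342 FPKM in innervated WT muscle. Its 2 DKO-labelled libraries lay above the other 4, and the difference between the genotypes did not pass in edgeR but was called higher by DESeq2. Plin5, which couples lipid droplets to mitochondria, had 1.47 and 0.743 FPKM in DKO-labelled and 0.802 and 17.3 FPKM in denervated WT, against 41.8 and 33.4 FPKM in innervated WT muscle. Its DKO-labelled libraries differed from innervated WT by -4.92 (edgeR adjusted p = 0.0321), while the denervated WT libraries, -1.93 from innervated WT, did not pass (adjusted p = 0.23). That value was -5.43 and passed without denervated WT library 2 (edgeR adjusted p = 0.00221), and it did not pass without library 1 (adjusted p = 0.0593). Lpin2 had 7.87 and 12 FPKM in DKO-labelled and 5.62 and 9 FPKM in denervated WT, against 1.29 and 1.09 FPKM in innervated WT muscle, while the related Lpin1 had 17.5 and 9.12 FPKM in DKO-labelled and 20.5 and 9.21 FPKM in denervated WT, against 49.5 and 42.3 FPKM in innervated WT muscle. Both Lpin changes passed in WT, in opposite directions (2.67 ± 0.32 and -1.57 ± 0.44, edgeR adjusted p = 0.00448 and 0.04).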
